A study of Mus musculus with 24 samples.

Results

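Thrombospondins are secreted glycoproteins of the extracellular matrix, and the mouse family consists of Thbs1, Thbs2, Thbs3, Thbs4 and Comp (cartilage oligomeric matrix protein). These 5 genes were looked up by symbol among the 54752 gene identifiers of a count table from fetal mouse vessels. The family was chosen from measured values, namely that the genotype change of Thbs4 differs between the DA (ductus arteriosus) and the ascending aorta. Values of Thbs4, and the difference between the vessels for each member, are therefore given as descriptions with no test. A filter on low counts was passed by 5 of the 5 genes, which are among 16463 genes tested.

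Thbs1 and Thbs2 form trimers, bind the cell-surface proteins Cd36 and Cd47 and limit the growth of new vessels, and Thbs1 can also activate latent TGF-beta. Thbs3, Thbs4 and Comp form pentamers that bind collagens and other matrix proteins, and they are best known from tendon, cartilage, heart and skeletal muscle. In vessel walls, smooth muscle cells, endothelial cells and fibroblasts are all known sources of thrombospondins, and platelets carry stores of thrombospondin protein.

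Bulk RNA-Seq was run on the DA, the fetal vessel that joins the pulmonary artery to the aorta and closes after birth, and on the ascending aorta, both taken from E18.5 mouse embryos. The question was what loss of Prdm6, a PRDM family regulator of transcription found in smooth muscle, does to gene expression in each vessel. The 23 libraries form 4 groups: control DA (7), Prdm6-deficient DA (5), control aorta (6) and Prdm6-deficient aorta (5), and replicate 4 of Prdm6-deficient DA was not analysed here. Deficient embryos of both vessels were Wnt1Cre;PRDM6f/f, with floxed alleles and a Cre driven by Wnt1 (the Wnt1Cre2 line), which acts in neural crest and its descendants, so cells of other origin in the same tissue keep the gene.

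Control DA comprised 5 PRDM6wt/f embryos, 1 PRDM6wt/wt embryo and 1 Wnt1Cre;PRDM6wt/wt embryo, and control aorta comprised 5 PRDM6wt/f embryos and 1 Wnt1Cre;PRDM6wt/wt embryo. In Prdm6-deficient DA, replicates 1 and 2 each pool 2 embryos. The embryo numbers on the labels fall into 2 runs, here called the first and second series. The first series gave 2 control DA, 3 Prdm6-deficient DA, 1 control aorta and 2 Prdm6-deficient aorta libraries, and the second gave 5, 2, 5 and 3. Levels are given in CPM after TMM scaling, which puts libraries of different depth on one scale. Total counts ranged from 15163974 to 22610547 per library, so that 3 counts correspond to between 0.133 and 0.198 CPM, and such floors cover counting error only. Where groups are said below not to overlap, the share of all tested genes that do the same is not given.

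On the mouse genome build GRCm38 (mm10), in the GENCODE annotation used, Thbs1 (ENSMUSG00000040152.8) lies on chromosome 2 at 118111876 to 118127133, Thbs2 (ENSMUSG00000023885.9) on chromosome 17 at 14665500 to 14694235, and Thbs3 (ENSMUSG00000028047.11) on chromosome 3 at 89215180 to 89226837. Thbs4 (ENSMUSG00000021702.7) lies on chromosome 13 at 92751590 to 92794818, and Comp (ENSMUSG00000031849.9) on chromosome 8 at 70373558 to 70382066. Each of the 5 is thus on a chromosome of its own.

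Prdm6, the targeted gene, was lower in every deficient library than in every control library of the same vessel. In the DA, controls had a lowest, median and highest level of 84.9, 104 and 128 CPM, against 78.1, 70.8, 77.7, 78.5 and 58.6 CPM in Prdm6-deficient replicates 1, 2, 5, 6 and 7. In the aorta, controls had a lowest, median and highest level of 95.6, 109 and 135 CPM, against 69.6, 70.0, 68.5, 81.2 and 61.9 CPM in Prdm6-deficient replicates 1 to 5. The levels follow the labels in all 23 libraries, but counts over the whole gene do not separate the floxed exons from the rest. The log2 fold change was -0.57 (SE 0.11) in the DA and -0.69 (SE 0.11) in the aorta, with adjusted p = 5.5e-04 and 1.7e-04 in edgeR's quasi-likelihood test with Benjamini-Hochberg adjustment, lower in 5 of 5 deficient libraries of each vessel.

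Smooth muscle markers were abundant in every library of both vessels. The summed level of 8 smooth muscle markers (Myh11, Acta2, Tagln, Cnn1, Mylk, Smtn, Myocd and Lmod1) had a lowest, median and highest value of 13721, 17856 and 24026 CPM in control DA, and it was 11429, 9956, 12161, 11053 and 10110.4 CPM in Prdm6-deficient DA replicates 1, 2, 5, 6 and 7. In the aorta the same sum had a lowest, median and highest value of 8658, 10753 and 12256 CPM in controls, and it was 10612, 11033, 10458, 9594 and 11309 CPM in Prdm6-deficient replicates 1 to 5. Control DA thus lay above the other 3 groups with no overlap. The most abundant of these genes by CPM were Tagln and Acta2, and 0 of the 8 had at most 3 counts in every library of any group. Blood differed more between libraries. Platelet and erythroid markers, led by the globin gene Hba-a1, summed to 27558 CPM in Prdm6-deficient DA replicate 1 and 27464 CPM in control aorta replicate 4, the blood-rich libraries, against at most 13145 CPM in the others. In a bulk sample, fewer cells of a type and less RNA per cell cannot be told apart.

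Of the 4 members with a test, 2 were called in Prdm6-deficient against control DA, where a call needs both a log2 fold change beyond 0.5 in size and an adjusted p that is below 0.01. Of all genes tested, 5.43% were called in that comparison. In it 1 member, Thbs2, was higher, beside 2.61% of all tested genes, and 1, Thbs1, was lower, beside 2.82%. In Prdm6-deficient against control aorta, edgeR called 0 of the 4, beside 2.45% of all tested genes (1.63% higher and 0.826% lower), and 2 of the 4 had an unadjusted p under 0.05, while DESeq2 also called 0.

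Between the vessels of control embryos, 1 of the 4 members, Thbs1, was called and was higher in the DA, beside 5.36% of all tested genes, with 3.16% of them all higher in the DA and 2.19% in the aorta. Between the vessels of Prdm6-deficient embryos, edgeR called 0 of the 4, beside 0.267% of all tested genes, with 0.152% higher in the DA and 0.115% in the aorta. In that comparison 1 of the 4, Thbs3, had an unadjusted p under 0.05, and DESeq2 called 1, also Thbs3. The vessel comparisons use the same libraries as the genotype comparisons, so their values are set side by side and are not independent of each other.

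**Figure D1:**
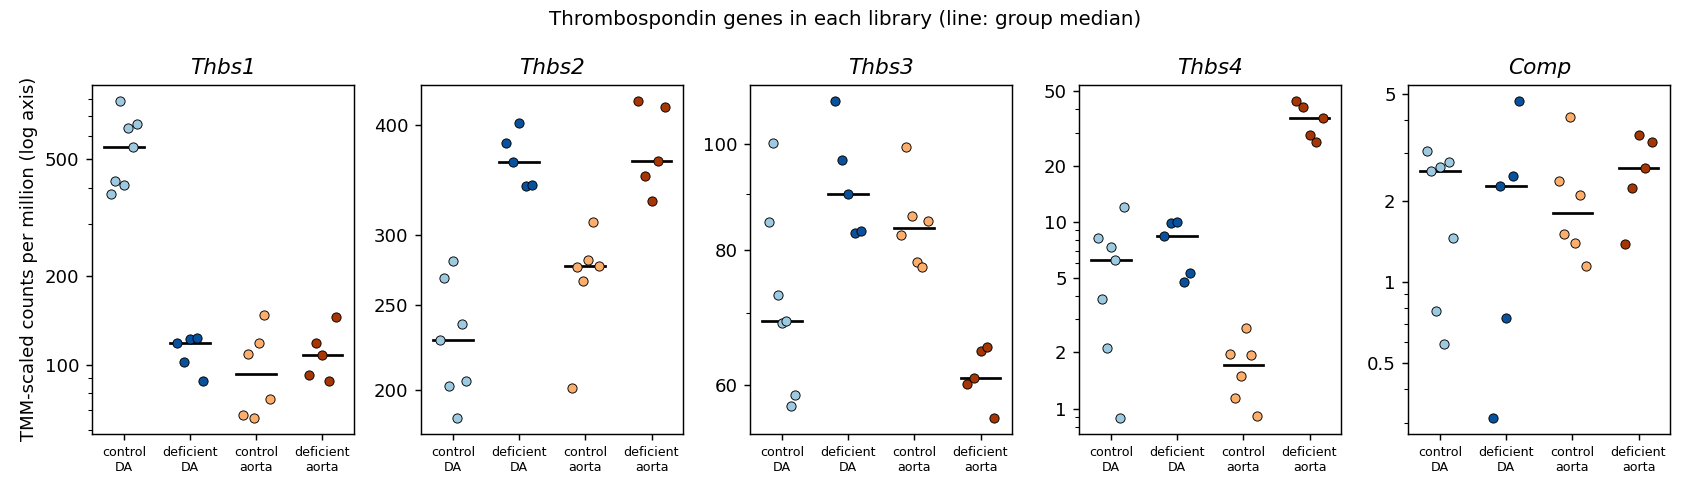
Level of each thrombospondin gene in each library, in TMM-scaled CPM on a log axis whose range differs between panels, by group. Each point is 1 library and each line is the group's median. Thbs1 is high in the 7 control DA libraries, and Thbs4 is high in the 5 Prdm6-deficient aorta libraries.

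Thbs1, the member best known as an inhibitor of angiogenesis, set control DA apart from the other 3 groups. Its level in control DA had a lowest, median and highest value of 380.2, 549 and 791 CPM. In Prdm6-deficient DA it was 118, 102, 122, 123 and 88.1 CPM in replicates 1, 2, 5, 6 and 7. The lowest control DA library was above every deficient DA library, and the deficient ones lay close together. In the aorta the lowest, median and highest control levels were 65.8, 92.8 and 147 CPM, and Prdm6-deficient replicates 1 to 5 had 92.0, 118, 108, 87.8 and 145 CPM. Those aorta groups overlapped, and both also overlapped Prdm6-deficient DA.

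In the DA the log2 fold change of Thbs1 was -2.32 (SE 0.21), with adjusted p = 1.1e-08 in edgeR's quasi-likelihood test with Benjamini-Hochberg adjustment, lower in 5 of 5 deficient libraries than in any control. In the aorta it was 0.18 (SE 0.20), which did not pass the same edgeR test at adjusted p = 0.845, with 3 of 5 deficient libraries above the control median. Between control vessels, Thbs1 was higher in the DA by 2.50 (SE 0.20) on the log2 scale, with adjusted p = 1.5e-09 in edgeR, and 7 of 7 DA libraries lay above all control aortas. Between deficient vessels the log2 difference was 0.00 (SE 0.21), with adjusted p = 0.999 in edgeR. That difference was 0.30 within the first series, -0.32 within the second and -0.18 with the embryo as a block, so its direction is not settled. The Thbs1 genotype change in the DA minus that in the aorta was -2.50 (SE 0.28), given with no test.

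The order of the Thbs1 group medians was control DA, Prdm6-deficient DA, Prdm6-deficient aorta and control aorta, and the last 3 did not differ beyond their spread. Within the first series the DA log2 fold change of Thbs1 was -2.33, and within the second it was -2.48. The first series holds 1 control aorta, so the aorta value comes from the second series alone, where it was 0.20. Without the blood-rich libraries the DA and aorta values of Thbs1 were -2.35 and 0.24.

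Smooth muscle markers moved in the same comparisons as Thbs1. In Prdm6-deficient against control DA, 6 of the 8 smooth muscle markers were called, each of them lower, with a median log2 fold change of -0.72 beside 0.01 over all tested genes. In the aorta 1 was called, Mylk, and was higher (median -0.05), and between control vessels 6 were called, each higher in the DA (median 0.79). Of all tested genes, 5.43% were called in the DA, 2.45% in the aorta and 5.36% between control vessels. The part of smooth muscle content in the Thbs1 values was not tested. Platelet and erythroid markers gave 0 of 8 called in the DA by edgeR, 0 at an unadjusted p under 0.05 and 0 by DESeq2, with a median of 0.21, and in the aorta 1 was called lower, the platelet chemokine Pf4 (log2 fold change -1.16, SE 0.27, adjusted p = 0.00946 in edgeR, Benjamini-Hochberg).

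The 3 genes whose log2 CPM over the 23 libraries was most like Thbs1 were Myh11 (smooth muscle myosin heavy chain), Actg2 (enteric smooth muscle actin) and Mcam (an adhesion molecule of endothelium and smooth muscle). Pearson's r with Thbs1 was 0.97, 0.97 and 0.96, and 0.75, 0.65 and 0.75 after each group's mean was taken out. These points share library and group, so r describes the pattern and carries no p. The DA log2 fold changes of the 3 were -1.90, -2.39 and -0.98, and the aorta values were -0.04, -0.09 and 0.28. As the 3 were picked for likeness to Thbs1, changes that resemble its own follow largely from the choice.

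Thbs2, a matricellular protein known from fibroblasts and from collagen fibril assembly, was higher in the deficient libraries of both vessels. Its control DA level had a lowest, median and highest value of 186, 228 and 280.4 CPM, against 382, 363, 402, 341 and 342 CPM in Prdm6-deficient DA replicates 1, 2, 5, 6 and 7. In the aorta the control values were 201, 277 and 310.3 CPM, against 426, 349.6, 328, 364 and 419 CPM in Prdm6-deficient replicates 1 to 5. In each vessel every deficient library lay above every control library, while the same genotype overlapped between the vessels. How many of all tested genes separate in this way is not given, so the separation is a description.

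Thbs2 rose in the DA, with a log2 fold change of 0.67 (SE 0.10) and adjusted p = 2.9e-05 in edgeR's quasi-likelihood test with Benjamini-Hochberg adjustment, higher in 5 of 5 deficient libraries. Its log2 fold change in the aorta was 0.49 (SE 0.11) with adjusted p = 0.00381 in edgeR, higher in 5 of 5, which is just short of the fold needed for a call. Without control aorta replicate 1 the aorta value was 0.42, and without Prdm6-deficient aorta replicates 1 or 5 it was 0.44 or 0.45, with edgeR adjusted p = 0.0112, 0.0195 and 0.0187, no longer below 0.01. Without control aorta replicate 5 it was 0.54, and without Prdm6-deficient aorta replicates 2 or 3 it was 0.52 or 0.54, each with an edgeR adjusted p below 0.01, which makes it a call. Whether Thbs2 is called in the aorta thus rests on single libraries. Within the first series the DA value of Thbs2 was 0.67, and within the second series it was 0.63 in the DA and 0.57 in the aorta, none of them below the p threshold in these smaller sets of libraries.

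Between the vessels Thbs2 had a log2 difference, DA over aorta, of -0.23 (SE 0.10) in controls and -0.04 (SE 0.11) in deficient embryos, with edgeR adjusted p = 0.157 and 0.959. Of the 7 control DA libraries 1 lay above the control aorta median, and of the 5 deficient DA libraries 2 lay above the deficient aorta median. The Thbs2 genotype change in the DA minus that in the aorta was 0.18 (SE 0.15), given with no test. The order of its group medians was Prdm6-deficient aorta, Prdm6-deficient DA, control aorta and control DA, where the first pair and the last pair overlapped within themselves and the pairs did not overlap with each other.

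Gja4 (a connexin of arterial endothelium), Cp (ceruloplasmin) and Kctd12 were most like Thbs2 over the 23 libraries, with r = 0.92, 0.92 and 0.91, and 0.69, 0.64 and 0.84 with group means taken out. The log2 fold changes of Gja4 were 1.29 in the DA and 0.93 in the aorta, those of Cp were 1.84 and 1.93, and those of Kctd12 were 0.90 and 0.64. Being picked for likeness to Thbs2, these genes largely share its direction through the choice. Across the members themselves, the highest r was that of Thbs2 with Thbs4 (0.56) and the lowest that of Thbs1 with Thbs2 (-0.61). With group means taken out those became 0.02 and 0.00.

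Thbs4 is a pentameric thrombospondin of tendon, muscle and heart that binds collagens. The promoters of Thbs4 and Thbs2 are shown here since both genes were higher in the 5 deficient aorta libraries than in any control aorta. The sequences are from RefSeq, where 3 of the 5 members were matched (Thbs2, Thbs3 and Thbs4; not Thbs1 and Comp). Each is 250 bases before the RefSeq start, on build GRCm38.p6, at chr13:92794819-92795068 (minus strand) for Thbs4 and chr17:14694263-14694512 (minus strand) for Thbs2, printed 5' to 3' along the gene. Capitals mark matches, on either strand, to 1 of 4 motifs: TEAD (GGAATG), AP-1 (TGANTCA), the TATA-like motif (TATAAA) and the CArG box.
Thbs4: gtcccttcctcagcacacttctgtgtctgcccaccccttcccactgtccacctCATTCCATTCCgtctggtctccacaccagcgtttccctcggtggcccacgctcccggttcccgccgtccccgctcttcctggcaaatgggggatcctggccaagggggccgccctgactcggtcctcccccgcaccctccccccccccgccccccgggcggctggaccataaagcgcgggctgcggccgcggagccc
Thbs2: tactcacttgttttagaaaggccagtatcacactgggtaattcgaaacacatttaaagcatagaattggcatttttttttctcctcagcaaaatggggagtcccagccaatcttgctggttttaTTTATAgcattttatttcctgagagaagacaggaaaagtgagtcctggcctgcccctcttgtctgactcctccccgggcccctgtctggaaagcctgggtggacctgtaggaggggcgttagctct
In Thbs4 the capitals are 2 overlapping TEAD matches that share 1 base, both on the opposite strand as CATTCC, at 197 to 192 and 192 to 187 bases before the start. In Thbs2 the capitals are 1 TATA-like match, on the opposite strand as TTTATA, at 126 to 121 bases before the start. AP-1 and CArG had 0 matches in either window, and Thbs3 at chr3:89214930-89215179 (plus strand) had 0 matches to the 4 motifs. Over the same 250 bases of 32851 promoters, the TEAD letters occurred in 12.6%, AP-1 in 6.75%, TATA-like in 12.4% and CArG in 1.47%. The E-box (CANNTG) and GC box (GGGCGG) were not capitalised: Thbs4 held 1 and 3 of them, Thbs3 1 and 1, and Thbs2 1 and 0, beside 66.2% and 32.7% of promoters with at least 1. The GC content was 70.8% in Thbs4, 46.8% in Thbs2 and 58.8% in Thbs3, beside a median of 52.4%. A match is a description of letters and says nothing about binding.

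In control aorta the lowest, median and highest Thbs4 levels were 0.911, 1.71 and 2.70 CPM, from 19 to 56 counts. In Prdm6-deficient aorta Thbs4 was 44.5, 41.3, 29.2, 26.9 and 36.0 CPM in replicates 1 to 5, from 579 to 901 counts. The aorta groups were far apart, with every deficient library above every control library. In control DA the lowest, median and highest Thbs4 levels were 0.891, 6.23 and 12.0 CPM. In Prdm6-deficient DA it was 8.35, 9.88, 4.77 and 5.35 CPM in replicates 1, 2, 6 and 7, and in replicate 5, with 219 counts, it was just above the level of replicate 2. The DA groups overlapped, with control DA replicate 6 the lowest and control DA replicate 7 the highest of the 12 DA libraries.

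The log2 fold change of Thbs4 was 4.39 (SE 0.44) in the aorta, from a mean of 1.69 (SD 0.648, n = 6) to 35.6 (SD 7.52, n = 5) CPM, and 0.40 (SE 0.38) in the DA, from 5.80 (SD 3.84, n = 7) to 7.68 (SD 2.49, n = 5) CPM. The aorta value was number 17 from the highest of the 16463 genes tested. Between the vessels the log2 difference of Thbs4, DA over aorta, was 1.77 (SE 0.39) in controls and -2.21 (SE 0.42) in deficient embryos. The change in the DA minus that in the aorta was -3.99 (SE 0.58), and it ran from -4.17 to -3.70 when each of the 23 libraries was left out in turn. These are the values for which the family was chosen.

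The order of the Thbs4 group medians was Prdm6-deficient aorta, Prdm6-deficient DA, control DA and control aorta. The middle pair did not differ beyond its spread, and control DA also overlapped control aorta. Within the second series the log2 fold change of Thbs4 was 4.54 in the aorta and 0.13 in the DA, and within the first series it was 1.37 in the DA. Leaving out 1 library moved the DA value of Thbs4 between 0.21 (without control DA replicate 6) and 0.69 (without control DA replicate 7), with replicate number as a block in the model it was 0.64, and without the blood-rich libraries it was 0.36.

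**Figure D2:**
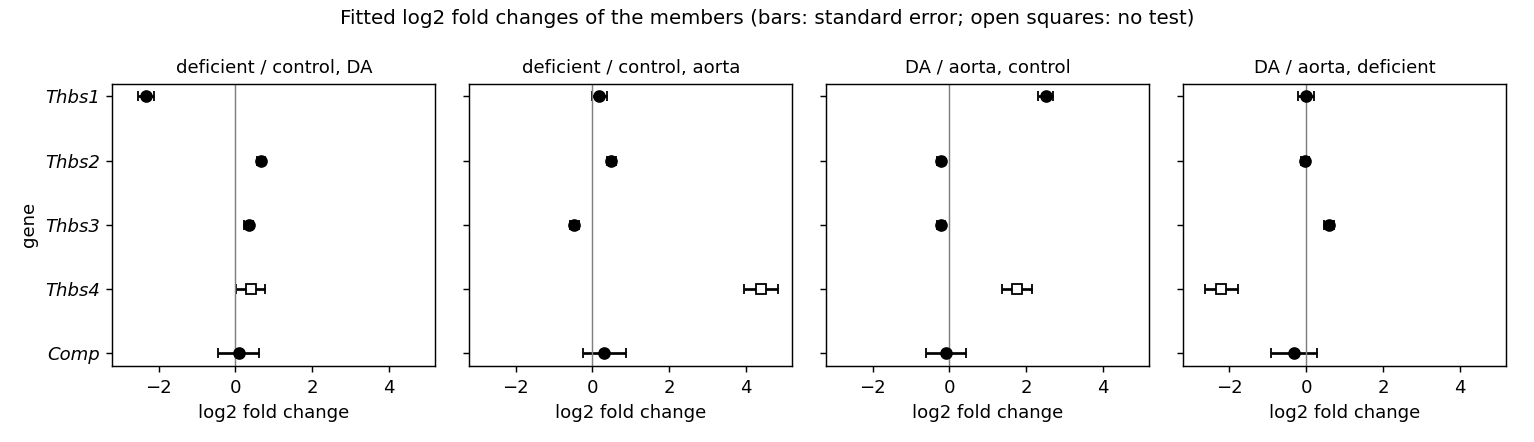
Log2 fold change of the 5 genes in the 4 comparisons, with bars of 1 standard error and open squares for values with no test. In the aorta Thbs4 is at 4.39 and in the DA at 0.40, while Thbs1 is at -2.32 in the DA and 0.18 in the aorta.

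Ptx3 (a soluble pattern recognition protein), 1190002N15Rik, Penk (proenkephalin), Ccdc3, Mpped2, Mme (neprilysin) and Ctsd (cathepsin D) were among the genes with the patterns most like Thbs4. Over the 23 libraries r with Thbs4 ran from 0.93 for Ptx3 to 0.86 for Ctsd, and with group means taken out it ran from 0.35 for Mpped2 to 0.70 for 1190002N15Rik. In the aorta these 7 genes were higher at an edgeR adjusted p below 0.01, with values of 2.94 for Ptx3, 3.14 for Penk, 5.17 for Ccdc3 and 3.30 for Mme. In the DA the log2 fold changes of Ptx3, Penk, Ccdc3 and Mme were 0.50, 0.46, 2.21 and -0.08. These genes were picked for likeness to a gene chosen on its aorta change. Their direction there, and largely their low adjusted p, thus follow from the choice and give no support.

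Markers of tendon and ligament (Scx, Tnmd, Mkx, Fmod, Kera and Chad), a tissue where Thbs4 and Comp are abundant, were also summed. Their sum had a lowest, median and highest value of 97.7, 112 and 159 CPM in control DA and was 82.3, 62.5, 83.2, 68.8 and 51.9 CPM in Prdm6-deficient DA replicates 1, 2, 5, 6 and 7. It had a lowest, median and highest value of 22.4, 37.1 and 42.8 CPM in control aorta and was 46.9, 38.9, 80.3, 58.9 and 60.2 CPM in Prdm6-deficient aorta replicates 1 to 5. The DA groups did not overlap and the aorta groups overlapped through Prdm6-deficient aorta replicate 2. Scx was the most abundant of the 6 in all 4 groups.

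In the DA 2 of the 6 tendon markers were called, Scx and Tnmd, both lower, with a median log2 fold change of -0.08. The called shares of all tested genes were 5.43% in the DA, 2.45% in the aorta and 5.36% between control vessels. In the aorta 1 was called, the tendon transcription factor Mkx, with a median of 1.17 over the list, and Mkx had a log2 fold change of 2.75 (SE 0.49, adjusted p = 5.6e-04 in edgeR's quasi-likelihood test). All 6 had a log2 fold change above 0 in the aorta, 5 of them with an unadjusted p under 0.05, and DESeq2 called 2, both higher. Between control vessels 4 of the 6 were called, each higher in the DA, and all 6 had a log2 value above 0 (median 1.75). Of the 8 skeletal muscle markers 6 were tested, with 1 called lower in the DA, Ckm (median -1.12), and 0 called in the aorta by edgeR (median 0.42), where 2 had an unadjusted p under 0.05 and DESeq2 called 0. Of the 8 cardiac muscle markers edgeR and DESeq2 called 0 in either vessel (medians 0.41 and -0.28), with 2 at an unadjusted p under 0.05 in the DA and 0 in the aorta. Summed skeletal muscle markers, led by Ckm, had medians of 75.0, 26.1, 19.2 and 25.6 CPM in control DA, Prdm6-deficient DA, control aorta and Prdm6-deficient aorta, and summed cardiac markers, led by Tnnt2, had 134, 174, 84.3 and 84.4 CPM. Myog, a defining skeletal muscle gene, had at most 3 counts in every library of the first 3 groups. The part of these tissues in the Thbs4 values was not tested.

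Thbs3, a pentameric member known from bone and heart, had opposite signs of its genotype change in the 2 vessels. Its control DA level had a lowest, median and highest value of 57.4, 68.8 and 100.4 CPM, against 109.7, 96.7, 90.1, 82.8 and 83.3 CPM in Prdm6-deficient DA replicates 1, 2, 5, 6 and 7. In control aorta the values were 77.1, 83.8 and 99.4 CPM, and Prdm6-deficient aorta replicates 1 to 5 had 60.2, 60.9, 64.5, 65.1 and 56.0 CPM. Every deficient aorta lay below every control aorta and below every deficient DA, while the DA groups overlapped through the highest controls.

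The log2 fold change of Thbs3 was 0.34 (SE 0.11) in the DA, which missed the threshold at adjusted p = 0.0394 in edgeR's quasi-likelihood test with Benjamini-Hochberg adjustment, with 5 of 5 deficient libraries above the control median. In the aorta it was -0.47 (SE 0.11), which also missed it at edgeR adjusted p = 0.0125, with 5 of 5 below all controls. With animal series as a term in the model the aorta value was -0.51 at edgeR adjusted p = 0.00492, which makes it a call. Between deficient vessels Thbs3 was at 0.59 (SE 0.12), DA over aorta, with edgeR adjusted p = 0.0113 and 5 of 5 DA libraries above all aortas, and between control vessels at -0.21 (SE 0.10) with adjusted p = 0.234. The change in the DA minus that in the aorta was 0.81 (SE 0.16), given with no test.

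Several of these Thbs3 values have an adjusted p near 0.01, and single libraries decide the side of it. The DA and aorta values below, with 1 library left out, are also short of the log2 change of 0.5 that a call needs. Without control DA replicate 2, edgeR gave 0.43 in the DA with adjusted p = 0.00263, -0.47 in the aorta with 0.00276 and 0.59 between deficient vessels with 0.00243. Without control DA replicates 6 or 7, the aorta value of -0.47 had edgeR adjusted p = 0.00742 and 0.00943, and without control DA replicates 1, 6 or 7 the value of 0.59 between deficient vessels had 0.00958, 0.00529 and 0.00768. Other single libraries left out raised the adjusted p of Thbs3 to as much as 0.141 in the DA, 0.0437 in the aorta and 0.0444 between deficient vessels. Between deficient vessels it was 0.0881 with the embryo as a block, 0.167 without the pooled DA samples (at 0.48) and 0.0498 without the blood-rich libraries. Control DA libraries enter the aorta and deficient-vessel values only through the shared estimate of spread and the set of genes tested. Within the second series the log2 fold change of Thbs3 was 0.41 in the DA and -0.52 in the aorta, and within the first series it was 0.12 in the DA.

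The order of the Thbs3 group medians was Prdm6-deficient DA, control aorta, control DA and Prdm6-deficient aorta, and each group overlapped its neighbour in that order. Mtx1, a mitochondrial import gene on the opposite strand, spans Thbs3 and shares 318 of its 4823 exon bases, or 6.59%. The authors report default settings for RSEM, which do not use strand, so some reads of Mtx1 could count for Thbs3. The Mtx1 log2 fold changes were 0.13 in the DA and 0.03 in the aorta, and r between the 2 genes was 0.33 over 23 libraries. The genes most like Thbs3 were Fbln1 (fibulin 1), Plac8 and Ntm, with r = 0.79, 0.77 and 0.74, and 0.64, 0.63 and 0.50 with group means taken out. The log2 fold change of Fbln1 was 0.68 in the DA and -0.71 in the aorta, signs that largely follow from picking it for likeness to Thbs3.

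The counts of Comp, the cartilage member, ran from 5 to 96, and its levels ran from 0.312 to 4.71 CPM, both extremes being Prdm6-deficient DA libraries (replicates 1 and 7). The group medians were 2.65 CPM in Prdm6-deficient aorta, 2.58 in control DA, 2.27 in Prdm6-deficient DA and 1.81 in control aorta, and all 4 groups overlapped, so no neighbours in that order differ beyond their spread. The log2 fold change of Comp was 0.08 (SE 0.54) in the DA and 0.31 (SE 0.56) in the aorta, with edgeR adjusted p = 0.956 and 0.927 and with 1 of 5 and 4 of 5 deficient libraries above the control median.

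Between the vessels Comp was at -0.08 (SE 0.52) in controls and -0.32 (SE 0.59) in deficient embryos, DA over aorta, with edgeR adjusted p = 0.96 and 0.934, where 4 of 7 and 1 of 5 DA libraries lay above the aorta median. The change in the DA minus that in the aorta was -0.23 (SE 0.78), given with no test. It turned to 0.29 within the second series, 0.09 without the pooled DA samples, 0.13 without the blood-rich libraries and 0.04 without Prdm6-deficient DA replicate 1. Without Prdm6-deficient DA replicate 7 the DA value of Comp was -0.46, and without control DA replicates 3 or 5 it was -0.06 or -0.08, so its sign rests on single libraries. The vessel value in controls likewise became 0.22 without control aorta replicate 3, and 0.05 or 0.07 without control DA replicates 3 or 5. Within the first series the DA value was -0.52 and within the second 0.72. The genes most like Comp were Rpl10-ps3, Gfod2 and Cdhr4, with r = 0.80, 0.75 and 0.71.

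Cartilage, where Comp is most abundant, was followed by 10 markers. Of these 8 were tested, and their sum had a median of 121 CPM in control DA, 309 in Prdm6-deficient DA, 339 in control aorta and 280.2 in Prdm6-deficient aorta. Acan (aggrecan), which vessels also express, was the most abundant in each group and made at least 62.0% of the summed means, the share in control DA. Matn1, a defining cartilage gene, had at most 3 counts in every library of all 4 groups, and Snorc in 3 of the groups. In the DA 2 markers were called higher, Acan and Hapln1, and 1, Sox9, lower (median 0.94), and in the aorta 1, Hapln1, higher and 1, Sox9, lower (median 0.37). Called genes made 5.43% of all tested genes in the DA and 2.45% in the aorta.

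**Figure D3:**
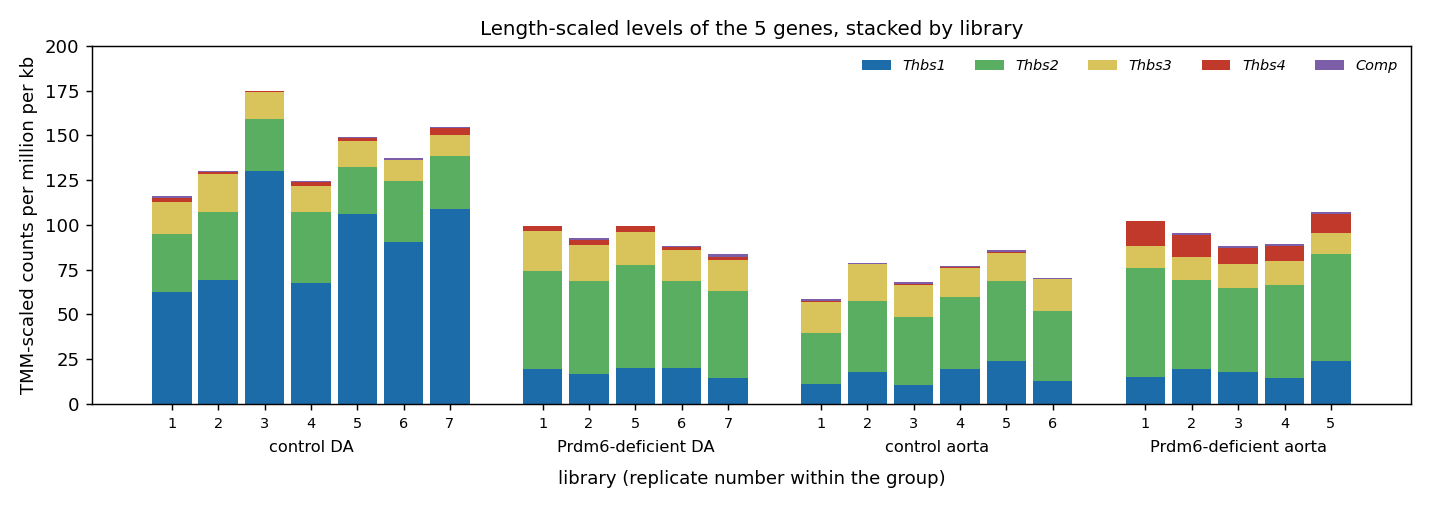
Levels of the 5 genes per kb of exon, stacked for each library, in TMM-scaled CPM per kb, by group and replicate number. Thbs1 is the largest share in the 7 control DA libraries and Thbs2 in the other 16.

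To compare members with each other, CPM were divided by exon length in kb. On that scale Thbs1 was the highest member in 7 of 7 control DA libraries, and Thbs2 was the highest in all 16 others. The order Thbs1, Thbs2, Thbs3, Thbs4, Comp held in 6 of 7 control DA libraries. In Prdm6-deficient DA, 3 of 5 libraries had Thbs2, Thbs3, Thbs1, Thbs4, Comp, and 2 of 5 had Thbs1 ahead of Thbs3. In control aorta Thbs4 was the lowest member in 5 of 6, and in Prdm6-deficient aorta it passed Comp in 5 of 5 and Thbs3 in 1 of 5.

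Thbs1 made a median of 65.7% of the family's summed length-scaled level in control DA, 19.5% in Prdm6-deficient DA, 20.9% in control aorta and 20.2% in Prdm6-deficient aorta. Thbs4 made 1.28%, 2.56%, 0.673% and 10.2% in the same order of groups. The summed level had medians of 137, 92.4, 73.7 and 95.3 CPM per kb. Control DA ran from 116 to 175 and did not overlap the others, and control aorta, from 58.4 to 85.8, overlapped Prdm6-deficient DA, which began at 83.8, but not Prdm6-deficient aorta, which began at 88.1. The log2 ratio of Thbs1 to Thbs2 on this scale ran from 0.75 to 2.17 in control DA and was below 0 in all other libraries.

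Both vessels came from the same embryo in 6 control embryos and in 3 deficient units, of which 1 is a pooled DA whose 2 embryos gave separate aortas. Thbs1 was higher in the DA than in the aorta of the same embryo in 6 of 6 controls, by 1.80 to 3.07 on the log2 scale, and in 1 of 3 deficient units (-0.72 to 0.17). Thbs4 was higher in the DA in 5 of 6 controls (-0.36 to 2.77) and in 0 of 3 deficient units (-2.75 to -1.54). Thbs3 was higher in the DA in 2 of 6 controls (-0.79 to 0.22) and 3 of 3 deficient units (0.48 to 0.67). Thbs2 was higher in the DA in 2 of 6 controls and 1 of 3 deficient units, and Comp in 3 of 6 and 2 of 3.

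**Figure D4:**
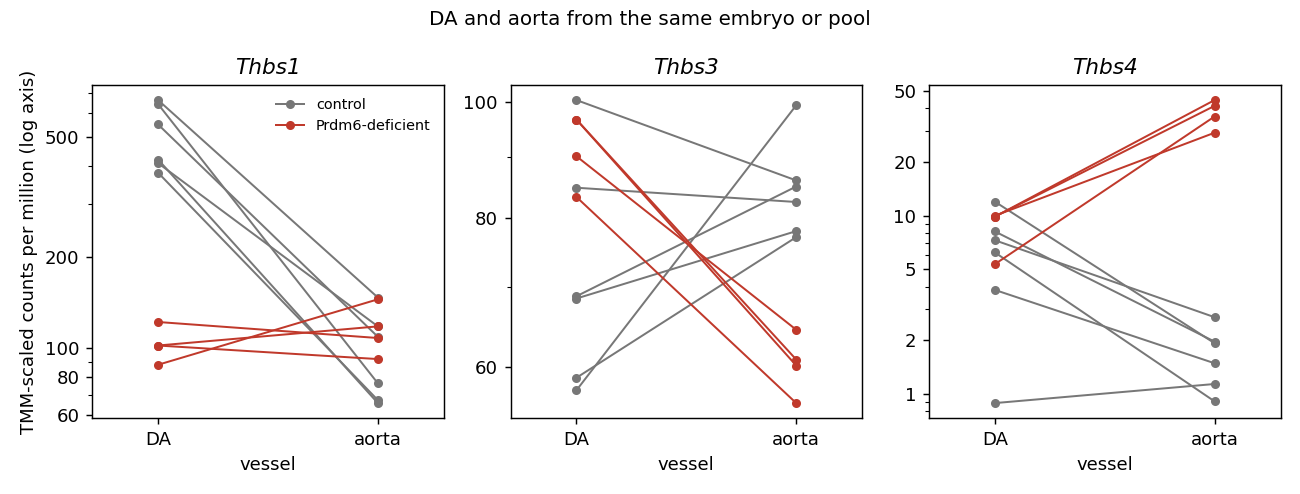
Level of Thbs1, Thbs3 and Thbs4 in the DA and the aorta of the same embryo or pool, in TMM-scaled CPM on a log axis, with a line joining each pair (the pooled DA is joined to both of its aortas). Thbs1 falls from DA to aorta in the 6 control embryos, and Thbs4 rises from DA to aorta in the 3 deficient units.

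Of 19 listed receptors and cell-surface partners of thrombospondins 18 were tested: 1 was called in the DA, lower (median log2 fold change -0.06 beside 0.01 over all tested genes), and 1 higher and 2 lower in the aorta (median 0.07 beside 0.00). Over all tested genes 2.82% were called lower in the DA, and 1.63% higher and 0.826% lower in the aorta. The Thbs1 receptors Cd36 and Cd47 had log2 fold changes of -0.78 (SE 0.47) and -0.18 (SE 0.14) in the DA and 0.28 (SE 0.47) and 0.07 (SE 0.14) in the aorta, none of which passed the test. Lrp1, the uptake receptor for Thbs1 and Thbs2, was at 0.02 and 0.07, and the integrin subunit Itgav at 0.03 and 0.11, also without passing.

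Among the partners that did pass, the heparan sulfate proteoglycan Sdc4 fell in the DA, at -0.56 (SE 0.08, adjusted p = 7.6e-06 in edgeR's quasi-likelihood test), with 0 of 5 deficient libraries above the control median. The integrin subunits Itgb3 and Itga8 fell in the aorta, at -0.64 (SE 0.12) and -1.11 (SE 0.15), with edgeR adjusted p = 0.00137 and 1.0e-05 and 0 of 5 above the control median. In the other vessel Sdc4 (-0.37, adjusted p = 0.00328, aorta) and Itgb3 (-0.47, adjusted p = 0.00852, DA) were also lower in edgeR, with 0 of 5 above the control median, and were short of the fold needed for a call. Itga8 had a median of 775 CPM in control aorta against 367 in Prdm6-deficient aorta, and 421 against 381 in the DA. The partner called higher in the aorta was Cacna2d1, at 0.63 (SE 0.12, edgeR adjusted p = 0.00152), with 5 of 5 above the control median. Its DA value of 0.41 (SE 0.12) did not pass at edgeR adjusted p = 0.0222, also with 5 of 5 above the control median. Between control vessels 3 partners were called, each lower in the DA (median 0.04), beside 2.19% of all tested genes. Between deficient vessels edgeR and DESeq2 called 0 partners (median 0.05), and 1 partner had an unadjusted p under 0.05. There edgeR called 0.267% of all tested genes.

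TGF-beta ligands and latent complex proteins, which Thbs1 can act on, numbered 11, all tested. In the DA 1 was called, lower (median -0.16), in the aorta 2 were called, both higher (median 0.03), and between control vessels 2 higher and 1 lower in the DA (median -0.13). Beside these stand 5.43%, 2.45% and 5.36% of all tested genes called in the same comparisons. Ltbp1, which tethers latent TGF-beta to the matrix, fell by 0.65 on the log2 scale (SE 0.13, adjusted p = 9.8e-04 in edgeR) in the DA and rose by 0.62 (SE 0.13, edgeR adjusted p = 0.00368) in the aorta, in 5 of 5 deficient libraries each. Fbn2, a fetal fibrillin of elastic fibres, rose in the aorta by 1.52 (SE 0.12, edgeR adjusted p = 3.8e-09) with 5 of 5 above the control median, and had a value of -0.23 in the DA.

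Collagens and matrix partners gave 6 higher and 2 lower of 24 tested in the DA (median 0.17), and 2 higher and 1 lower in the aorta (median 0.10). The shares of all tested genes were 2.61% higher and 2.82% lower in the DA, and 1.63% and 0.826% in the aorta. Col12a1, a fibril-associated collagen, rose in both vessels, by 1.14 (SE 0.12) and 1.58 (SE 0.12), with edgeR adjusted p = 9.8e-08 and 2.5e-09 and 5 of 5 libraries above the control median in each. Hapln1, which links hyaluronan to proteoglycans, also rose in both, by 1.91 and 1.66. Acan rose in the DA by 1.61, and Col9a2 fell there with a log2 fold change of -1.65, while their aorta values of -0.29 and 0.30 did not pass.

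Other proteins with type 1 repeats, the domain through which Thbs1 and Thbs2 bind Cd36, gave 5 higher and 9 lower of 49 tested in the DA (median 0.01), and 6 higher and 4 lower in the aorta (median 0.19). All tested genes gave 2.61% higher and 2.82% lower in the DA, and 1.63% and 0.826% in the aorta. Rspo3, a secreted enhancer of Wnt signalling, rose in both, by 2.23 (SE 0.24) and 3.11 (SE 0.26), with edgeR adjusted p = 2.0e-07 and 5.7e-09 and 5 of 5 above the control median. Rspo2 rose in the aorta by 2.54 and was at 0.46 in the DA. Spon1 rose in the DA by 1.33, and Spon2 and the protease Adamts9 fell there, with log2 fold changes of -1.73 and -1.63. The aorta values of those 3, -0.34, -0.66 and 0.53, did not pass.

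Matricellular proteins, secreted matrix proteins that signal to cells as Thbs1 and Thbs2 do, gave 2 higher and 5 lower of 19 tested in the DA (median 0.00), and 1 higher and 1 lower in the aorta (median 0.08). For all tested genes the shares were 2.61% higher and 2.82% lower in the DA, and 1.63% and 0.826% in the aorta. Postn (periostin) rose in both vessels, by 1.38 and 1.21. Ccn2 (connective tissue growth factor) and Smoc1 fell in the DA, with log2 fold changes of -1.25 and -1.17, and had 0.09 and -0.23 in the aorta. Ccn3 fell in the aorta, at -1.01, and was at 0.00 in the DA. Tnn (tenascin N) fell in the DA, at -1.53, and its aorta value of 1.40 had adjusted p = 0.0201 in edgeR, with 5 of 5 above the control median.

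**Figure D5:**
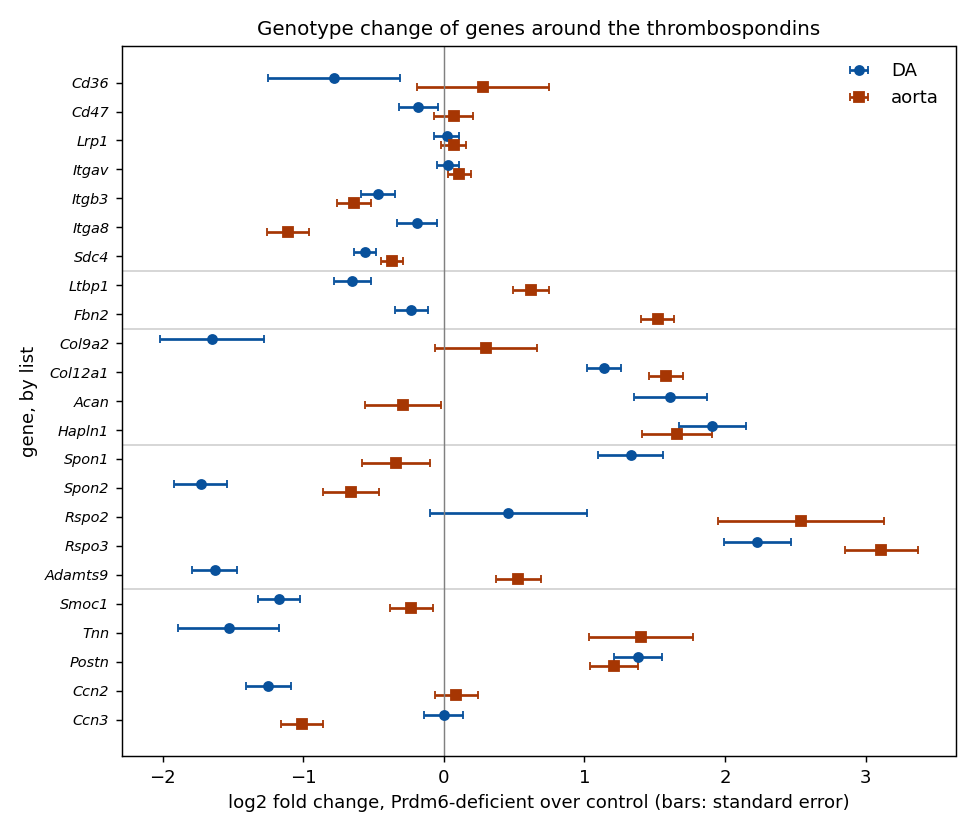
Log2 fold change, Prdm6-deficient over control, of named genes around the thrombospondins, in the DA (circles) and the aorta (squares), with bars of 1 standard error. Col12a1, Hapln1, Rspo3 and Postn are above 0 in both vessels, and Ltbp1 and Tnn lie on opposite sides of 0.

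Between control vessels the matrix partners gave 3 higher and 3 lower in the DA (median -0.07), the type 1 repeat proteins 11 and 6 (median -0.05) and the matricellular proteins 6 and 2 (median 0.02). All tested genes gave 3.16% higher and 2.19% lower in that comparison. Between deficient vessels edgeR called 0 TGF-beta genes (median -0.05), with 4 at an unadjusted p under 0.05 and 0 by DESeq2. It called 0 matrix partners (median 0.11), with 8 at an unadjusted p under 0.05, while DESeq2 called 1 higher and 1 lower in the DA. EdgeR called 2 type 1 repeat proteins, both higher in the DA (median -0.02), and 1 matricellular protein, lower there (median 0.10). Of all tested genes it called 0.152% higher and 0.115% lower in the DA.

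Markers of the other cell types were read in the same way, as values beside the thrombospondins whose part in those results was not tested. Their counts stand beside 5.43% of all tested genes called by edgeR in the DA and 2.45% in the aorta. In the DA edgeR and DESeq2 called 0 of 8 endothelial markers (median 0.27; 3 at an unadjusted p under 0.05) and 0 of 8 macrophage markers (median 0.13; 0 at an unadjusted p under 0.05). There 1 fibroblast marker of 8 was called higher and 1 lower (median 0.21), 3 of 9 Schwann cell and melanocyte markers were called, each lower (median -0.34), and 1 of 5 tested neuronal markers was called higher (median 0.95). In the aorta 3 endothelial markers were called, Tek, Tie1 and Emcn, each higher (median 0.54), as were the fibroblast marker Lum (median -0.33 over the list) and the neuronal marker Elavl4 (median 0.24 over the list). Macrophage markers had a median of -1.14 in the aorta, where edgeR called 0 of 8, 7 had an unadjusted p under 0.05, each lower, and DESeq2 called 3 lower. Of the Schwann cell and melanocyte markers, edgeR and DESeq2 called 0 in the aorta (median -0.29), with 3 at an unadjusted p under 0.05. Summed macrophage markers had medians of 142 and 205 CPM in control and deficient DA and 231 and 102 in control and deficient aorta. Summed fibroblast markers, led by Col1a1, had medians of 4283 and 4939 CPM in control and deficient DA and 4739 and 3892 in control and deficient aorta. Summed endothelial markers, led by Pecam1, had medians of 1025 and 1239 CPM in the DA and 942 and 1378 in the aorta.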

How the data were processed

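The members and the gene lists were chosen with earlier results of these data known. RNA from 23 libraries of fetal mouse DA and ascending aorta was sequenced, and per the submitters' notes reads were aligned to mm10 with STAR and quantified with RSEM, whose versions are not given. The deposited values are expected counts per gene, made by the authors with RSEM and not scaled for depth or gene length. Thbs1 had expected counts that are not whole in 3 libraries, Thbs3 in 4, and the other members in 0. Expected counts were rounded to whole numbers for testing. Gene identifiers were looked up in GENCODE M21, where 53861 of 54752 matched with their version, 54723 in all, and 29 did not match. The submitters give GENCODE version 20 as their annotation, a different number from M21, and what the difference changes was not tested.

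Tests used edgeR 4.0.16 in R 4.3.3 with filterByExpr, TMM scaling, 1 mean per group over the 23 libraries, the quasi-likelihood test and Benjamini-Hochberg adjustment over 16463 genes. A call needed a log2 fold change beyond 0.5 in size and an adjusted p under 0.01. Standard errors were taken as the absolute log2 fold change over the root of the F statistic. The alternatives were DESeq2 1.42.0, upper-quartile scaling, no filter, only the groups compared, a replicate block, an embryo block, animal series as a term or separately, no pools, no control embryo with Cre, and each library left out. The code was tested on simulated counts. Python 3.11.15, pandas 2.3.3, numpy 2.4.6, limma 3.58.1 and matplotlib 3.10.9 were also used.

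Replicate numbers do not pair libraries: r between residuals of libraries with the same number in different groups ran from -0.05 to 0.13, and for the same embryo from -0.02 to 0.08. Genes named are the 5 members, Prdm6, and from each list those called in a genotype comparison, up to 4 with the largest change in the DA and 2 in the aorta. Cd36, Cd47, Lrp1 and Itgav are named whatever their values, and Cacna2d1 was named once its values had been seen. For likeness, the 8 genes with the highest r with Thbs4 and the 3 highest with each other member were taken from 12513 genes with a mean log2 CPM of at least 1, and 1 of the 8 is not reported here. Further markers named beside a list's counts were picked once their values had been seen. The lists are receptors and cell-surface partners, TGF-beta ligands and latent complex, collagens and matrix partners, other proteins with type 1 repeats, matricellular proteins, and markers of smooth muscle, tendon and ligament, cartilage, skeletal muscle, cardiac muscle, endothelium, fibroblast, Schwann cell and melanocyte, neuron, macrophage, and platelet and erythroid cells. Some genes are on more than 1 list, such as Acan and Hapln1.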

Additional observations from a re-analysis of the deposited data

Results flagged for a closer look

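Of 240 sets of values by group that were examined, 17 held a library far from the rest of its group by Dixon's criterion, and chance alone gives about 1 in 20. Platelet and erythroid markers summed to 27558 CPM in Prdm6-deficient DA replicate 1 (next 6968) and to 27464 CPM in control aorta replicate 4 (next 9377). Cardiac muscle markers summed to 1087 CPM in control DA replicate 1 (next 202) and to 15.3 CPM in Prdm6-deficient aorta replicate 3 (next 82.8). Skeletal muscle markers summed to 242 CPM in control DA replicate 1 (next 86.7) and to 18.8 CPM in Prdm6-deficient aorta replicate 1 (next 25.4).

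Among receptors, Cd36 was high in control aorta replicate 2 (24.0 CPM, next 11.1), Cd47 low in control aorta replicate 6 (28.5 CPM, next 40.6) and Sdc4 high in control aorta replicate 1 (95.3 CPM, next 82.4). Among other list genes, Spon2 was high in control DA replicate 3 (156 CPM, next 109.6), Tnn in Prdm6-deficient aorta replicate 5 (17.6 CPM, next 13.8) and Ccn2 in Prdm6-deficient DA replicate 2 (695 CPM, next 491). Among genes with patterns like a member's, Ptx3 was high in Prdm6-deficient DA replicate 5 (18.8 CPM, lowest of the group 9.60) and Penk in control aorta replicate 3 (47.7 CPM, next 37.7). Kctd12 was low in control aorta replicate 1 (299 CPM, next 402), Fbln1 in Prdm6-deficient DA replicate 5 (122 CPM, next 190.4) and Cdhr4 in Prdm6-deficient aorta replicate 4 (2.84 CPM, next 4.10).

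The 48 genes examined were the members, the genes named from the lists that are not markers (without Cacna2d1) and the genes with patterns like a member's. Of these, 2 had every deficient library on one side of the controls in the DA and on the other side in the aorta. The share of all tested genes that did so is not given, so 2 of 48 has no background to be read against. For Ltbp1 the log2 fold change was -0.65 in the DA and 0.62 in the aorta, a difference of -1.27. For Tnn it was -1.53 and 1.40, a difference of -2.93. Apart from Acan, Hapln1 and Myh11, marker genes were not among the 48. Of those left out Mylk, a smooth muscle marker, did the same, at -0.99 in the DA and 0.65 in the aorta. None of these differences between the vessels was tested.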

How the results depend on the processing

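The log2 fold changes of Thbs1 and Thbs4 kept their direction in both genotype comparisons and between control vessels under every alternative run, and Thbs1 kept its side of the threshold. Thbs4 was chosen on its genotype changes and the alternatives reuse the same libraries. Its kept direction is thus a description and gives no support. A call needs adjusted p below 0.01 and a log2 change past 0.5. The values of Thbs2 and Thbs3 below include those where adjusted p changed side, beside others where it did not. With 5 to 7 libraries a group and Comp at 5 to 96 counts, each of Comp's log2 changes was smaller than its standard error. Leaving out the blood-rich libraries was chosen after seeing the data. Where a value below changed with fewer libraries, fewer libraries is part of the alternative itself, and otherwise the cause was not tested.

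Genes called in Prdm6-deficient against control DA (894) became 419 in the second series and 201 in the first. In the aorta 404 became 702 with only the groups compared and 226 in the second series. Between deficient vessels 44 became 137 with DESeq2, 83 with only the groups compared, 11 with the embryo block, 6 in the second series, 3 in the first, 15 without the pooled DA samples and 24 without the blood-rich libraries, and 22 to 58 with each library left out.

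The adjusted p of Thbs2 was no longer below 0.01 at 0.63 (second series) and 0.67 (first) in the DA, where the call was lost. The same held at 0.57 (second series) in the aorta, where Thbs2 was not called to begin with and leaving out each library gave 0.42 to 0.54, with both conditions met at 0.52 and 0.54. Its value between deficient vessels turned to 0.11 in the first series.

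The adjusted p of Thbs3 went below 0.01 in the DA at 0.43 without the control embryo with Cre (leaving out each library gave 0.27 to 0.43). In the aorta it did so at -0.47 with DESeq2, -0.47 with only the groups compared, -0.51 with animal series as a term and -0.46 without the control embryo with Cre (-0.49 to -0.41). Of these DA and aorta values only -0.51 is past the log2 change a call needs. Between deficient vessels both conditions were met at 0.60 with DESeq2, 0.59 with no filter, 0.60 with only the groups compared and 0.59 without the control embryo with Cre (0.52 to 0.63). They were not met at 0.59 with the embryo block, 0.60 in the second series, 0.54 in the first, 0.48 without the pooled DA samples and 0.52 without the blood-rich libraries.

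With the replicate block, although replicate numbers do not pair libraries, 16 genes were called between deficient vessels, the adjusted p of Thbs2 in the aorta, at 0.49, was no longer below 0.01, that of Thbs3 was below 0.01 at -0.50 in the aorta and 0.67 between deficient vessels, and Comp turned to -0.19 in the DA.

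Comp also turned in the DA to -0.52 in the first series (-0.46 to 0.36 with each library left out). Between control vessels it turned to 0.01 with the embryo block, 0.30 in the second series and 0.14 without the control embryo with Cre (-0.23 to 0.22). Between deficient vessels it turned to 0.59 in the second series and 0.01 without the pooled DA samples. For 48 called genotype results of genes on the lists that are not markers, 144 of 1613 values no longer had an adjusted p below 0.01 and 0 reversed. Whether each log2 change also stayed past 0.5 was not counted, so more calls may have been lost. Calls of genes that are on marker lists alone, such as Mylk and Pf4, are not among the 48 results.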
